A study of Mus musculus with 10 samples.

Results

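The Egr and Nr4a genes encode transcription factors that neurons switch on within minutes of stimulation. They were read here, with the corepressor gene Nab2, in cerebral cortex of C57BL/6 mice aged 3 months, in 5 libraries labelled BrapcKO and 5 control libraries. The genes were taken by name: Egr1, Egr2, Egr3, Egr4, Nab2, Nr4a1, Nr4a2 and Nr4a3, which are 8 of the 14276 genes in the deposited count table, and all 8 were measured. Among the libraries labelled BrapcKO, numbers 04, 07 and 21 were Brap flox/ko Cre+ and numbers 05 and 06 were flox/flox Cre+. Among the control libraries, numbers 08, 22 and 23 were flox/wt Cre- and numbers 09 and 24 were flox/flox Cre-. Brap encodes a ubiquitin ligase, and its flox allele carries sites for the recombinase Cre; wt is the normal allele and ko the knockout allele. Which promoter drives Cre, and which exons it removes, are not given in the labels. Every library labelled BrapcKO carried Cre while no control did, so Cre and the knockout cannot be told apart. The labels do not say whether each library came from a separate animal, and the spread behind the p-values may in part be technical.

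Egr proteins bind GC-rich DNA through zinc fingers, and the corepressors Nab1 and Nab2 bind to Egr proteins and hold back their activity. Nr4a proteins are orphan nuclear receptors that act without a known hormone and whose activity follows their amount. In cortex both families are known as immediate early genes: calcium entry and the MAP kinase pathway act on factors already present, SRF with its ternary complex partners at CArG boxes and CREB at cyclic AMP response elements (CRE), and no new protein is needed.

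The stretches before the start sites of 5 of these genes are shown, and all 5 genes fell in the data below. RefSeq windows (build GRCm38.p6) were found for 6 of the 8 genes. Egr1, which fell as well, and Egr3 had no window and were not searched. The Nab2 window was searched but is not printed, because it overlaps exons of the neighbouring gene Nemp1. The 250 bases before each start were searched on both strands for the CRE core TGACG, the full CRE TGACGTCA, which holds the core on both strands, and the CArG box. The CArG box was taken strictly as CC, then 6 letters that are each A or T, then GG. Sites with a mismatch were not counted for any motif. Capitals mark CRE cores and the CArG box, read 5′ to 3′ on the strand of the gene. For Nr4a3 only the bases before its GENCODE start are given.
Egr2, chr10:67537619-67537868, plus strand: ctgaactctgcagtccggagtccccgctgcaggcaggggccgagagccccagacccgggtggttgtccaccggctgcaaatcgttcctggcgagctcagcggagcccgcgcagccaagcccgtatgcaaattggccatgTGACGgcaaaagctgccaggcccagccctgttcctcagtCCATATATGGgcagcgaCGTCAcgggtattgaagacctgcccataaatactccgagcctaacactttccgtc
Egr4, chr6:85513590-85513839, minus strand: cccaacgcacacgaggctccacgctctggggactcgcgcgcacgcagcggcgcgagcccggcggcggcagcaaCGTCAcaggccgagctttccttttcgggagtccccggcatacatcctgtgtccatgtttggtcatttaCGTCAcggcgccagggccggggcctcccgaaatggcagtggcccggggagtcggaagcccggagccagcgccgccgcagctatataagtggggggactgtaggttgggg
Nr4a1, chr15:101266596-101266845, plus strand: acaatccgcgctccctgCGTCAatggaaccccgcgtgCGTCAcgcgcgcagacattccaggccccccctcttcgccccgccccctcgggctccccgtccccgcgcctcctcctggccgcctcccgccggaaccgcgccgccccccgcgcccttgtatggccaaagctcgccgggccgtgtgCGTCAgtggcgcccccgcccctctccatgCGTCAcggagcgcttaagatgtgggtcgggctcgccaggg
Nr4a2, chr2:57124004-57124253, minus strand: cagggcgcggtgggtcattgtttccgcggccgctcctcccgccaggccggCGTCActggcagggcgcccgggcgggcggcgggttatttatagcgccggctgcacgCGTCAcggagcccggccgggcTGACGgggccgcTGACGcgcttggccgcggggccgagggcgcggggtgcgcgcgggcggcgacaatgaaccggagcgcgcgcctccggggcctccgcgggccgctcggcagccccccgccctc
Nr4a3, chr4:48045055-48045152, plus strand: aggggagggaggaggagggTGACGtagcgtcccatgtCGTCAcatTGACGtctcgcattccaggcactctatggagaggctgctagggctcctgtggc

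Each of the 3 Nr4a windows held 4 CRE cores, of which 3 lie in the stretch printed for Nr4a3. Of all 32851 RefSeq windows of this length, 17.8% held at least 1 core and 0.688% held 3 or more. The printed Egr2 window and the Egr4 window held 2 cores each. A CArG box without mismatch was found in the Egr2 window (1.47% of all windows held one) and in none of the windows of Egr4, Nab2 or the Nr4a genes. The full CRE, present in 1.55% of windows, was in none of the searched windows of these genes. Neither the Egr site GCGTGGGCG (0.536% of windows) nor the Nr4a site AAAGGTCA (1.34%) was in any of them, and the Nab2 window held none of these motifs. RefSeq lists several starts for Egr2, and the window printed is the one before position 67537869. Of the Egr2 windows free of exons, it was taken because it held the most CRE cores. The windows before positions 67535499 and 67537566 held 0 cores, and the first of these also held 0 CArG boxes. Motif counts of the printed Egr2 window are therefore not those of an unselected window, as the shares over all windows are. A match is a run of letters and no evidence of binding.

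Total counts ran from 17188901 to 28479295 in the libraries labelled BrapcKO and from 19695101 to 28991874 in control. Sample titles hold B1 or B2, a code that is not explained: 4 libraries labelled BrapcKO and 2 control libraries are B1, and 1 and 3 are B2. Reads of the Y-linked genes Ddx3y, Uty, Kdm5d and Eif2s3y were high in BrapcKO 05, 06, 07 and 21 and in control 23 and near 0 in the other libraries, so sex was uneven between the groups as well. Brap itself averaged 104 ± 9.15 CPM (the read count as a share of the library total, scaled by TMM) in the libraries labelled BrapcKO and 88.4 ± 8.58 CPM in control (SD, n = 5 each), a log2 difference of 0.23 with an edgeR adjusted p of 0.182. Brap was thus not lower under its label, and with the deleted exons not given, a whole-gene count could not check the deletion. Markers of cortex were present, among them Slc17a7, the vesicular glutamate transporter of cortical excitatory neurons, at 1094 ± 171 CPM in the libraries labelled BrapcKO and 913 ± 140.4 CPM in control (SD, n = 5 each).

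Most genes of both families were lower in the libraries labelled BrapcKO. With the title code as a term, edgeR's quasi-likelihood test with Benjamini-Hochberg adjustment over all genes (adjusted p under 0.05 counts as a change) found that 6 of the 8 genes fell and 0 rose, where 8.07% of all genes were called (4.95% fell and 3.12% rose). With group as the sole term the same 6 fell and 0 rose, where 4.32% of all genes were called (2.49% fell and 1.83% rose). By plain means of CPM, which do not account for the title code, Egr2 fell to 18.2% of its control mean, Egr4 to 24.6% and Nr4a1 to 29.6%. For Egr4 the title code matters: its log2 fold change was -1.24 with the code as a term and -2.02 without. With the code, Egr1 changed by -1.32, slightly more than Egr4. Egr1, Nr4a2 and Nr4a3 also fell, to between 41.7% and 46.1% of their plain control means, while Egr3 and Nab2 did not pass the test. In bulk tissue, fewer cells of a type and less RNA per cell cannot be told apart.

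**Figure D1:**
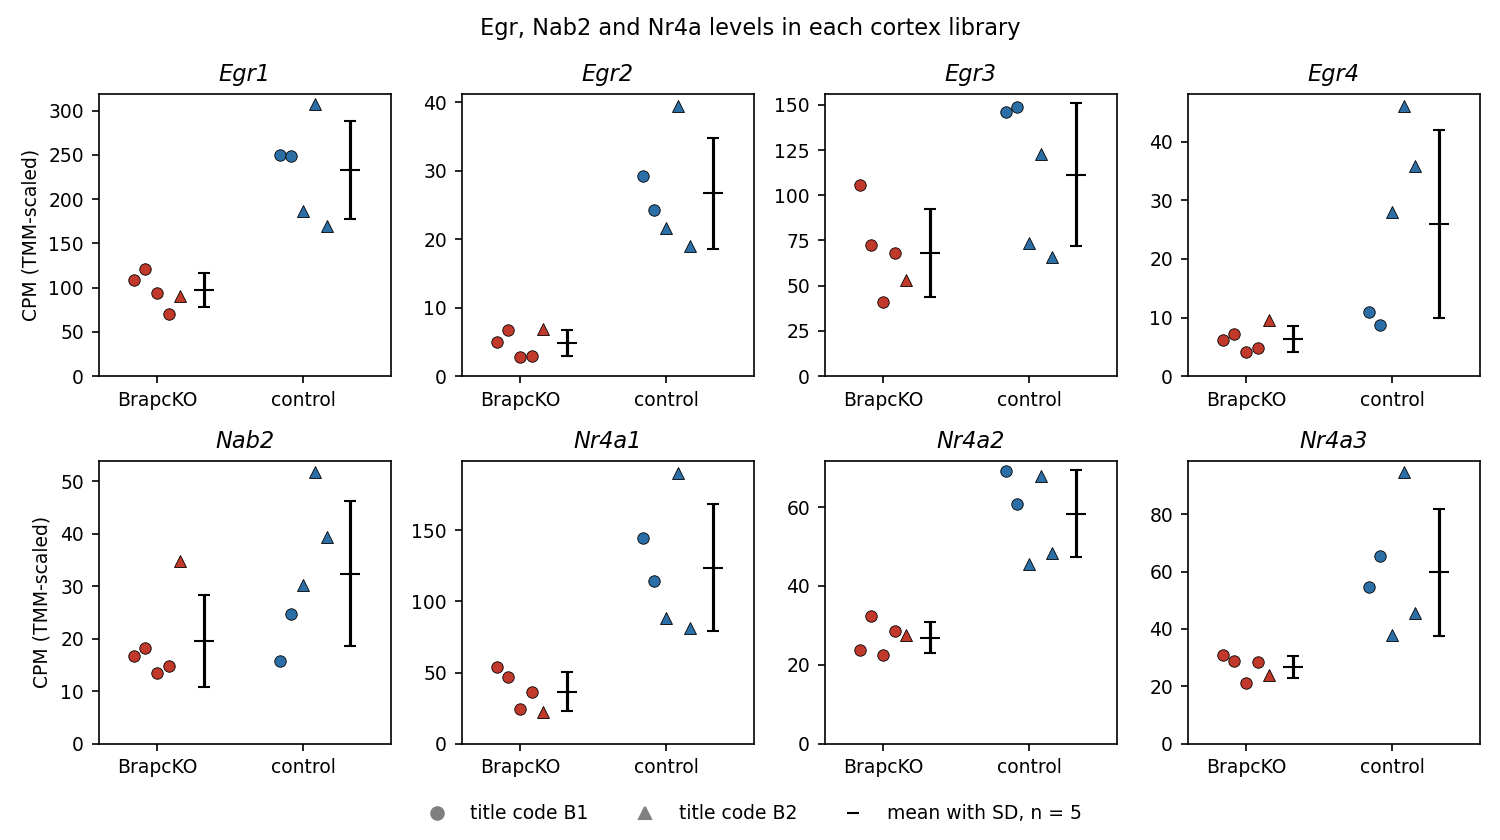
Each panel plots 1 gene, with the TMM-scaled CPM of every library on the y axis and the libraries labelled BrapcKO left of the control libraries. Circles are libraries of title code B1, triangles B2, and the bar is the mean with SD (n = 5). Groups are apart for Egr1, Egr2, Nr4a1, Nr4a2 and Nr4a3 and overlap for Egr3, Egr4 and Nab2.

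Egr1 (ENSMUSG00000038418.7, GRCm38 chromosome 18, 34859823 to 34864984, plus strand), the family member used most widely as a mark of recent neuronal activity, had the highest level per kb of exon of the 8. It stood at 109, 121, 94.2, 70.6 and 90.4 CPM in BrapcKO 04, 05, 06, 07 and 21, against 250.5, 248, 187, 308 and 169.9 CPM in control 08, 09, 22, 23 and 24. All 5 libraries labelled BrapcKO lay below the lowest control library. The log2 fold change was -1.32 (SE 0.19, 95% interval -1.73 to -0.91, edgeR adjusted p 0.00197).

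Egr2 (ENSMUSG00000037868.15, chromosome 10, 67535475 to 67542188, plus strand), known also as Krox20 for its role in the hindbrain and in myelinating Schwann cells, had the largest fold change of the 8. It stood at 4.93, 6.68, 2.83, 2.98 and 6.90 CPM in BrapcKO 04, 05, 06, 07 and 21, against 29.2, 24.2, 21.6, 39.4 and 19.0 CPM in control 08, 09, 22, 23 and 24. The highest library labelled BrapcKO was well under the lowest control, although these levels rest on 60 to 195 reads in the libraries labelled BrapcKO and 471 to 1130 in control. On the log2 scale the fold change was -2.37 (SE 0.29, 95% interval -3.02 to -1.73, edgeR adjusted p 0.00116).

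Egr3 (ENSMUSG00000033730.4, chromosome 14, 70077203 to 70082614, plus strand), itself a target of Egr1 and needed for muscle spindles, did not pass. It stood at 105, 72.4, 41.0, 68.3 and 53.4 CPM in BrapcKO 04, 05, 06, 07 and 21, against 146, 149, 73.7, 123 and 65.7 CPM in control 08, 09, 22, 23 and 24. The groups overlapped, since BrapcKO 04, 05 and 07 lay above the lowest control library, but within each title code they did not. Its log2 fold change was -0.92 (SE 0.26, 95% interval -1.49 to -0.35, edgeR adjusted p 0.0569). DESeq2 and limma-voom put the adjusted p at 0.0321 and 0.0335, and without BrapcKO 04 or BrapcKO 06 edgeR gave 0.0218 and 0.0372. Egr3 was not called in 9 of 12 alternative fits or in 8 of 10 fits that left out 1 library. Among the 12, the fit without the low-count filter repeats the main fit. With group as the sole term the edgeR adjusted p was 0.236, and with the Y-linked score added it was 0.237. Without control 09 it was 0.180.

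Egr4 (ENSMUSG00000071341.4, chromosome 6, 85511121 to 85513589, minus strand), another zinc finger factor, differed by title code as well as by group. It stood at 6.12, 7.2, 4.11, 4.79 and 9.6 CPM in BrapcKO 04, 05, 06, 07 and 21, against 11, 8.7, 28.0, 46.1 and 35.8 CPM in control 08, 09, 22, 23 and 24. Only BrapcKO 21, a B2 library, lay above the lowest control, a B1 library, and within each code the groups were apart. With the title code in the fit, the log2 fold change was -1.24 (SE 0.26, 95% interval -1.80 to -0.68, edgeR adjusted p 0.0123), against -2.02 without it (adjusted p 0.0424). It was -0.83 without BrapcKO 21 and -0.83 in the B1 libraries alone, and was called in neither (edgeR adjusted p 0.0908 and 0.0945).

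Nab2 (ENSMUSG00000025402.12, chromosome 10, 127660918 to 127668568, minus strand), which Egr proteins are known to induce and which then represses them, did not pass the test. It stood at 16.6, 18.3, 13.4, 14.8 and 34.8 CPM in BrapcKO 04, 05, 06, 07 and 21, against 15.8, 24.7, 30.2, 51.8 and 39.3 CPM in control 08, 09, 22, 23 and 24. The groups overlapped in both title codes. A log2 fold change of -0.31 was estimated (SE 0.17, 95% interval -0.68 to 0.06, edgeR adjusted p 0.323), and -0.72 without the title code (adjusted p 0.297). Its exons share 40 bases with Stat6 and 151 with Nemp1, both on the opposite strand, and 1050 with the antisense gene Gm16229, which is not in the table. Stat6, a transcription factor of interleukin signalling, fell by 0.46 (edgeR adjusted p 0.0324, and 0.288 without the title code) and averaged 12.1 ± 2.21 CPM in the libraries labelled BrapcKO and 14.9 ± 2.21 CPM in control, and Nemp1, a nuclear membrane protein gene, 5.88 ± 1.52 and 5.88 ± 0.74 CPM (SD, n = 5 each). The sources used here do not say whether counting used strand, and reads in these overlaps cannot be assigned.

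Nr4a1 (ENSMUSG00000023034.7, chromosome 15, 101254269 to 101274795, plus strand), also called Nur77, had the largest fold change of the nuclear receptors. It stood at 53.8, 46.6, 24.5, 36.3 and 22.1 CPM in BrapcKO 04, 05, 06, 07 and 21, against 145, 115, 88.1, 190.3 and 81.2 CPM in control 08, 09, 22, 23 and 24. All 5 libraries labelled BrapcKO lay below all control libraries. It fell by 1.94 on the log2 scale (SE 0.34, 95% interval -2.70 to -1.19, edgeR adjusted p 0.00792), and without BrapcKO 21 the log2 fold change was -1.70 with an adjusted p of 0.0607.

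Nr4a2 (ENSMUSG00000026826.13, chromosome 2, 57106830 to 57124003, minus strand), also called Nurr1, is needed for midbrain dopamine neurons and marks neurons of the claustrum and deepest cortical layer. It stood at 23.8, 32.3, 22.5, 28.5 and 27.5 CPM in BrapcKO 04, 05, 06, 07 and 21, against 69.2, 60.8, 45.5, 68.0 and 48.3 CPM in control 08, 09, 22, 23 and 24. The groups were apart, and the coefficient of variation was small in both, at 14.5% in the libraries labelled BrapcKO and 18.8% in control. The log2 fold change was -1.17 (SE 0.14, 95% interval -1.48 to -0.86, edgeR adjusted p 0.000572). Of 10 other markers of claustrum and layer 6b, Oprk1 and Nxph4 rose, Cplx3 fell and 7 were not called (3.12% of all genes rose and 4.95% fell); Nxph4 was not called without the title code (edgeR adjusted p 0.518). Their summed level overlapped, at 261 to 367 CPM in the libraries labelled BrapcKO and 255 to 359 CPM in control. Their part in the Nr4a2 difference was not tested.

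Nr4a3 (ENSMUSG00000028341.9, chromosome 4, 48045153 to 48086447, plus strand), also called Nor1, stood at 30.9, 28.9, 21.3, 28.4 and 24.0 CPM in BrapcKO 04, 05, 06, 07 and 21, against 54.5, 65.3, 37.9, 94.8 and 45.7 CPM in control 08, 09, 22, 23 and 24. The groups were apart, with a wider spread in control, where control 23 was highest. It fell by 1.19 on the log2 scale (SE 0.25, 95% interval -1.74 to -0.65, edgeR adjusted p 0.0146). It lost its call without BrapcKO 21 or control 09 (-1.14 and -1.15, edgeR adjusted p 0.0969 and 0.0724).

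In 5 of the 8 genes, all 5 libraries labelled BrapcKO lay below all 5 control libraries, against 3.71% of all genes. In 7 of the 8, all but Nab2, the groups did not overlap within either title code, against 8.89% of all genes. BrapcKO 21, the single B2 library of its group, bore on the count of calls: without it 3 of the 8 genes were called (Egr1, Egr2 and Nr4a2), while 406 genes were called in the whole table in place of 1152. In the 6 B1 libraries alone 5 of the 8 fell, where 2.91% of all genes were called (2.12% fell and 0.785% rose), and Egr4 was the one called over all libraries that was not. Sex stays uneven in B1: both control libraries (08 and 09) and BrapcKO 04 had almost no Y-linked reads, and BrapcKO 05, 06 and 07 had many. When the Y-linked score (the mean log2 CPM of the 4 Y-linked genes) joined the title code in the model, the same 6 genes fell, where 2.24% of all genes were called (1.6% fell and 0.644% rose), with log2 fold changes of -1.50 for Egr1, -2.64 for Egr2, -1.39 for Egr4, -2.11 for Nr4a1, -1.43 for Nr4a2 and -1.48 for Nr4a3 (edgeR adjusted p 0.00891, 0.00734, 0.0486, 0.0339, 0.00151 and 0.0195).

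**Figure D2:**
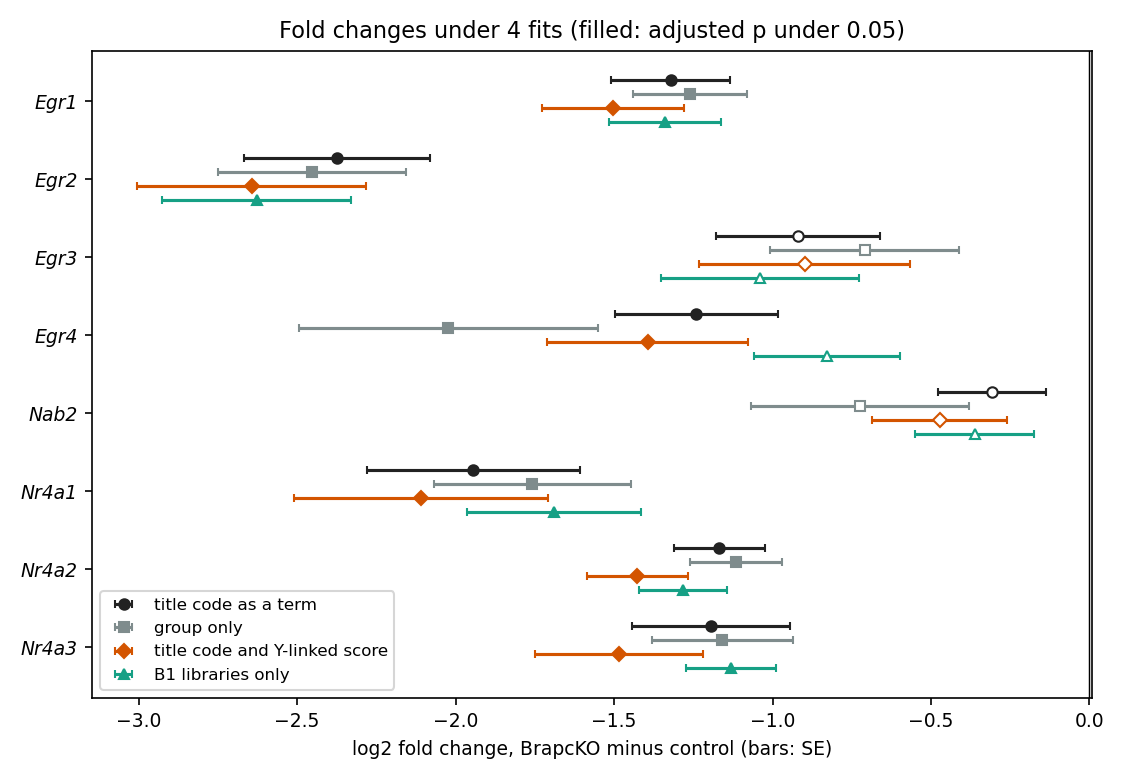
The x axis gives the edgeR log2 fold change of each gene, BrapcKO minus control, with its SE as a bar, under 4 fits: with the title code, with group only, with title code and Y-linked score, and in B1 libraries only. Filled symbols have an adjusted p under 0.05. All points lie below 0, from -2.64 for Egr2 to -0.31 for Nab2, and Egr4 moves most between fits.

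Libraries alike in title code and Y-linked reads could be set side by side without a test. BrapcKO 04 and control 08 and 09 are B1 libraries with almost no Y-linked reads, and against the mean of that pair BrapcKO 04 was lower by log2 ratios of -1.20 for Egr1, -2.44 for Egr2, -0.48 for Egr3 and -0.69 for Egr4. The ratios were -0.29 for Nab2, -1.27 for Nr4a1, -1.45 for Nr4a2 and -0.96 for Nr4a3. BrapcKO 21 and control 23 are B2 libraries with Y-linked reads, and the log2 ratios there were -1.77, -2.51, -1.20 and -2.27 for Egr1 to Egr4, -0.57 for Nab2 and -3.11, -1.31 and -1.98 for Nr4a1 to Nr4a3. All 8 genes were thus lower in the library labelled BrapcKO in both settings. Control 23, which enters the second, was the highest control library for 6 of the genes.

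Between title codes 2 of the 8 genes differed. With group in the model, Egr4 was higher in B2 than in B1 libraries by a log2 difference of 1.49 (SE 0.25, edgeR adjusted p 0.00101) and Nab2 by 1.06 (SE 0.17, edgeR adjusted p 0.000561). Of all genes, 25.1% were called between the codes, 13.4% higher in B2 and 11.8% lower. Egr3 was lower in B2, with a log2 difference of -0.62 and an adjusted p of 0.117, and the other 5 genes differed by -0.39 to 0.25. The part of the code in the levels of the other genes was not tested further.

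**Figure D3:**
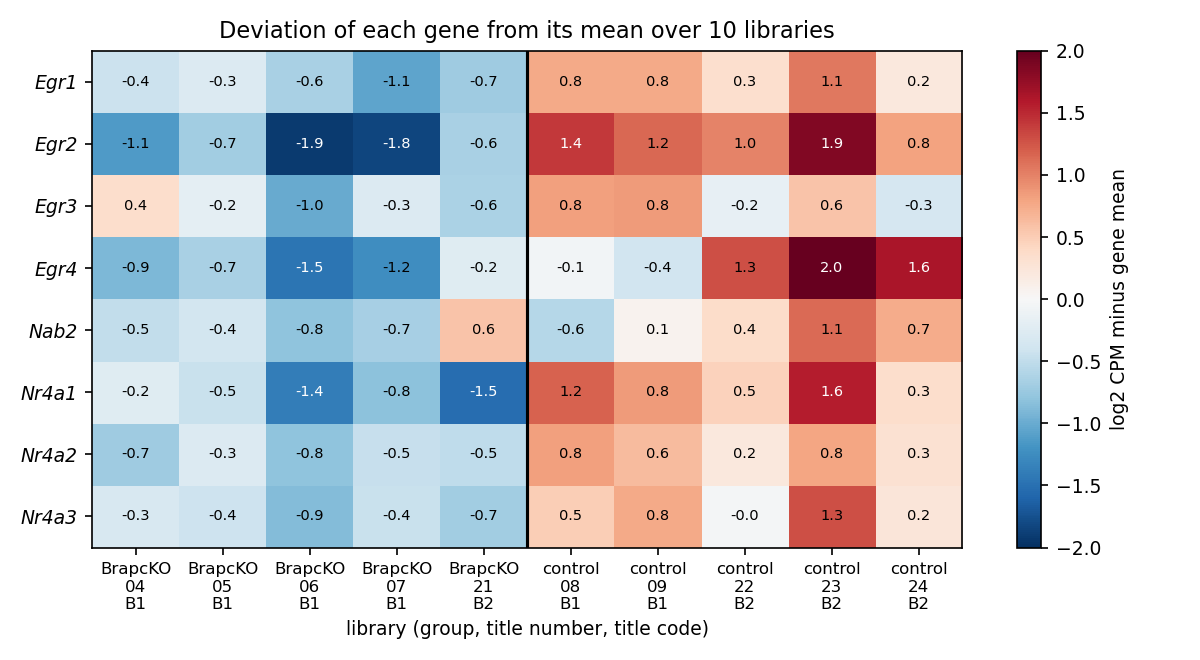
Rows are the 8 genes and columns the 10 libraries, labelled BrapcKO at left and control at right, each named by title number and code. Cells give log2 CPM minus the mean of the gene over all 10 libraries, from blue (lower) to red (higher). Control 23 is the highest column, with a mean over the genes of 1.29, and BrapcKO 06 the lowest at -1.11, while Egr4 and Nab2 follow the title code within each group.

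Averaged over the 8 genes, the deviation from the gene means ran from -1.11 to -0.42 on the log2 scale in the libraries labelled BrapcKO and from 0.43 to 1.29 in control. BrapcKO 06 was the lowest of its group in this average and BrapcKO 05 the highest. Control 23 stood apart from the other 4 control libraries, which lay between 0.43 and 0.61.

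The genes did not all differ by the same amount. For each of the 28 pairs, the log2 ratio of the 2 genes in each library was compared between groups by a two-sided exact permutation test over all arrangements of the libraries, whose smallest p is 0.00794, with adjustment over the 28 pairs. In 7 pairs the difference passed. Egr2 fell by more than Egr1, with a difference of 1.23 (Egr1 minus Egr2) in the change of mean log2 CPM, which leaves the title code out. It also had the larger log2 change in the pairs with Egr3, Nab2, Nr4a2 and Nr4a3, with differences of -1.79, -1.78, -1.38 and -1.39 (Egr2 minus the other). Nr4a1 differed from Egr3 by 1.07 (Egr3 minus Nr4a1) and from Nr4a3 by -0.67 (Nr4a1 minus Nr4a3). Each of the 7 had the smallest p the exact test can give, 0.00794, and an adjusted p of 0.0317. For Egr2 and Nr4a1 the difference was -0.72 (exact p 0.0714, adjusted 0.171), and for Nr4a2 and Nr4a3 it was -0.01 (exact p 0.96, adjusted 0.996). All these differences leave the title code out. With the code accounted for, Egr1 minus Egr2 was 1.06. Egr2 minus Egr3, Nab2, Nr4a2 and Nr4a3 was then -1.43, -2.10, -1.22 and -1.23. Egr3 minus Nr4a1 was then 0.998 and Nr4a1 minus Nr4a3 -0.793.

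With arrangements kept within title codes, of which there are 60 with a smallest p of 0.0167, the same 7 pairs passed and 4 more did, all with Nab2. With title codes accounted for, the differences in log2 change were -1.04 for Egr1 minus Nab2, 1.67 for Nab2 minus Nr4a1, 0.89 for Nab2 minus Nr4a2 and 0.88 for Nab2 minus Nr4a3 (each p 0.0167 by the exact test, adjusted 0.0424).

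Levels can be compared between genes only per length of exon. Per kilobase of merged exons, Egr1 was highest in both groups, at 21.7 ± 4.28 CPM per kb in the libraries labelled BrapcKO and 51.9 ± 12.3 CPM per kb in control (SD, n = 5 each), and Egr2 was lowest, at 1.43 ± 0.57 and 7.86 ± 2.37 CPM per kb. In the libraries labelled BrapcKO the order below Egr1 was Egr3 (15.5), Nr4a1 (10.4), Nab2 and Nr4a2 (6.65 and 6.63), Nr4a3 (4.46), Egr4 (2.97) and Egr2. In control it was Nr4a1 (35.3), Egr3 (25.3), Nr4a2 (14.4), Egr4 (12.1), Nab2 (11), Nr4a3 (9.96) and Egr2. Of neighbours in these orders, only Nr4a2 and Nr4a3 in the libraries labelled BrapcKO had ranges that did not overlap. Within libraries, Egr1 was above the next gene in 5 of 5 of each group, whereas Nab2 was above Nr4a2 in 1 of 5 libraries labelled BrapcKO, and Egr4 above Nab2 in 3 of 5 control libraries. The gene next to Egr1 was Egr3 in the libraries labelled BrapcKO, where it was above Nr4a1 in 5 of 5, and Nr4a1 in control, where it was above Egr3 in 4 of 5.

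**Figure D4:**
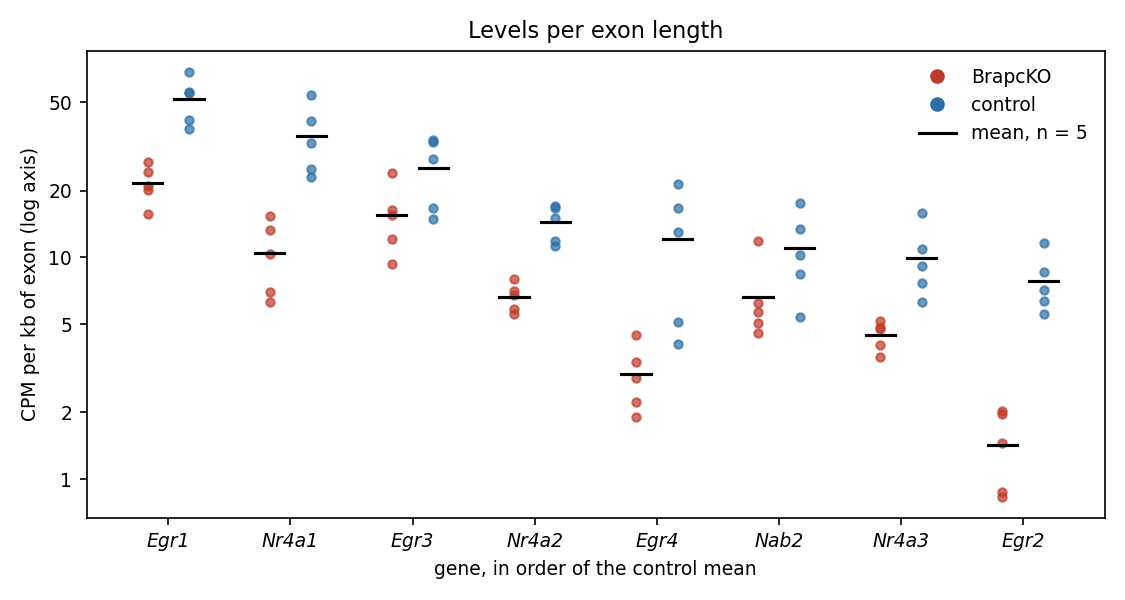
The y axis, on a log scale, gives CPM per kb of merged exons and the x axis the 8 genes in order of their control mean. Points are libraries, labelled BrapcKO in red at left and control in blue at right of each pair, and black lines are means (n = 5). Egr1 is highest and Egr2 lowest in both groups, and the gap between the group means is widest for Egr2.

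The same genes were then read by genotype. In a fit of 4 genotype groups with the title code, 5 of the 8 genes were lower in the flox/ko libraries (Cre+) than in the flox/wt libraries (Cre-), where 4.84% of all genes were called (3.08% lower and 1.77% higher), with log2 differences of -1.52 for Egr1, -2.55 for Egr2, -1.42 for Egr4, -2.16 for Nr4a1 and -1.24 for Nr4a2. Nr4a3 differed by -1.23 (edgeR adjusted p 0.0846). Among flox/flox libraries, 2 with Cre and 2 without, edgeR called 0 of the 8, where 0.736% of all genes were called (0.399% lower and 0.336% higher), and 7 of them had an unadjusted p under 0.05, as did 13.5% of all genes. The log2 differences there were -1.02 for Egr1, -2.12 for Egr2, -1.21 for Egr3, -0.93 for Egr4, -0.44 for Nab2, -1.70 for Nr4a1, -1.08 for Nr4a2 and -1.21 for Nr4a3. Both flox/flox libraries with Cre (BrapcKO 05 and 06) had high Y-linked reads, and both without (control 09 and 24) had almost none. Cre and sex therefore cannot be told apart in the flox/flox pair, which also enters the comparison of the genotype pairs below. The difference between the 2 genotype pairs was tested directly by edgeR and called for 0 of the 8 genes and 0% of the table. None of the 8 had an unadjusted p under 0.05 in it, against 6.12% of the table. The estimates ran from -0.50 for Egr4 (95% interval -1.55 to 0.56) to 0.35 for Egr3 (-0.62 to 1.31), and these intervals span differences of either sign.

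Other genes of the first wave of the response were lower too. Of 29 early activity-induced genes, 12 fell, 0 rose and 17 were not called, where 4.95% of all genes fell and 3.12% rose. Their median log2 fold change was -0.52, against 0.01 over all genes. Fos, a partner in the AP-1 factor, averaged 14.99 ± 4.15 CPM in the libraries labelled BrapcKO and 77.0 ± 21.4 CPM in control, and Npas4, a neuron-specific factor induced by calcium entry, 6.90 ± 2.90 and 31.4 ± 9.76 CPM (SD, n = 5 each; log2 fold changes -2.40 and -2.50, edgeR adjusted p 0.000523 and 0.00434). Arc, which acts on glutamate receptor trafficking, and Trib1, a pseudokinase, changed by -1.94 and -1.28 (edgeR adjusted p 0.00102 and 0.00343). Fosb, another AP-1 subunit, and Dusp1, a phosphatase of MAP kinases, changed by -0.97 and -1.26 (edgeR adjusted p 0.0063 and 0.0126). Fosl2, Ier2, Ccn1, Btg2, Junb and Arl4d were the other 6 that fell. The count was 5 without BrapcKO 21 or control 08, and 5 once the Y-linked score was added.

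Of 30 delayed activity-induced genes, 3 fell, 3 rose and 24 were not called, with a median of -0.06, where 4.95% of all genes fell and 3.12% rose. Pcsk1, a protease that matures neuropeptides, fell by 1.11, the neurofilament gene Nefm fell by 0.55 and Spry4, an inhibitor of receptor kinase signalling, fell by 0.64 on the log2 scale (edgeR adjusted p 0.00116, 0.00442 and 0.0444). Rgs2, a regulator of G-protein signalling, the tachykinin gene Tac1 and the granin gene Scg2 rose by 0.67, 1.27 and 0.84 (edgeR adjusted p 0.00475, 0.00575 and 0.0234). Without the title code Pcsk1 and Nefm fell and Scg2 rose, and Rgs2, Tac1 and Spry4 were not called (edgeR adjusted p 0.108, 0.0555 and 0.0617). Without BrapcKO 21, 5 of the 30 fell and 0 rose, with the Y-linked score added 2 fell and 0 rose, and in the B1 libraries alone 5 fell and 1 rose. Tac1 is also a marker of striatal neurons.

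Of 27 kinases and factors that act before the 2 families, 2 fell, 1 rose and 24 were not called, with a median of -0.06. This share called stands near the 8.07% of all genes. Camk4, a calcium-dependent kinase that phosphorylates CREB, averaged 427 ± 30.6 CPM in the libraries labelled BrapcKO and 672 ± 135 CPM in control (SD, n = 5 each; -0.73, edgeR adjusted p 0.00233). Camk2a, the main calcium-dependent kinase of excitatory synapses, changed by -0.56 (adjusted p 0.0179, and 0.264 without the title code). Elk1, a partner of SRF in the ternary complex, rose by 0.72, with 71.2 ± 8.28 CPM in the libraries labelled BrapcKO and 41.8 ± 7.54 CPM in control (edgeR adjusted p 0.00516). Without BrapcKO 21, 1 of the 27 fell and 0 rose, as in the B1 libraries alone and with the Y-linked score added, and without control 24, 2 fell and 4 rose.

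Among 11 partners, 1 fell and 1 rose, where 4.95% of all genes fell and 3.12% rose, so each count rests on a single gene. Nab1, the other Nab corepressor, averaged 43.7 ± 2.38 CPM in the libraries labelled BrapcKO and 53.2 ± 3.11 CPM in control (-0.29, edgeR adjusted p 0.0404, and 0.0569 without the title code). Rxrg, a retinoid X receptor that can pair with Nr4a1 and Nr4a2, rose by 0.77 (adjusted p 0.00684, and 0.335 without the title code). Without any 1 of the libraries except control 24, 1 of the 11 was called: it rose, except without BrapcKO 21, where 1 fell and 0 rose. Of 17 genes described in other settings as targets of Egr or Nr4a proteins, 2 fell (Arc and Nab1), 2 rose and 13 were not called, with a median of 0.10, where 8.07% of all genes were called. The lists overlap: Arc is also counted among the early genes, Nab1 among the partners and Nab2 among the genes read here, and others are in the delayed list. The genes that rose were Th and Ret, which Nr4a2 is known to turn on in midbrain dopamine neurons. Th, tyrosine hydroxylase, averaged 6.59 ± 2.05 CPM in the libraries labelled BrapcKO and 2.02 ± 1.11 CPM in control, and Ret, a receptor for glial neurotrophic factors, 16.03 ± 4.96 and 5.18 ± 1.07 CPM (SD, n = 5 each; 2.02 and 1.62, edgeR adjusted p 0.00266 and 0.00167).

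Of 27 nuclear receptors outside the Nr4a family, 4 fell, 1 rose and 22 were not called, where 4.95% of all genes fell and 3.12% rose. Their median was -0.10, and the 3 Nr4a genes had a median of -1.19. Among those that fell, Rora and Rorb, orphan receptors, and Nr3c1, the glucocorticoid receptor, changed by -0.55, -0.83 and -0.45 (edgeR adjusted p 0.0113, 0.00666 and 0.0202). Rarb, a retinoic acid receptor abundant in striatum, rose by 0.57 (adjusted p 0.0414) with the title code as a term, with means of 15.2 ± 13.4 CPM in the libraries labelled BrapcKO and 17.2 ± 10.96 CPM in control. None of the 27 was called without the title code or without BrapcKO 21, and 2 were called without control 09.

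**Figure D5:**
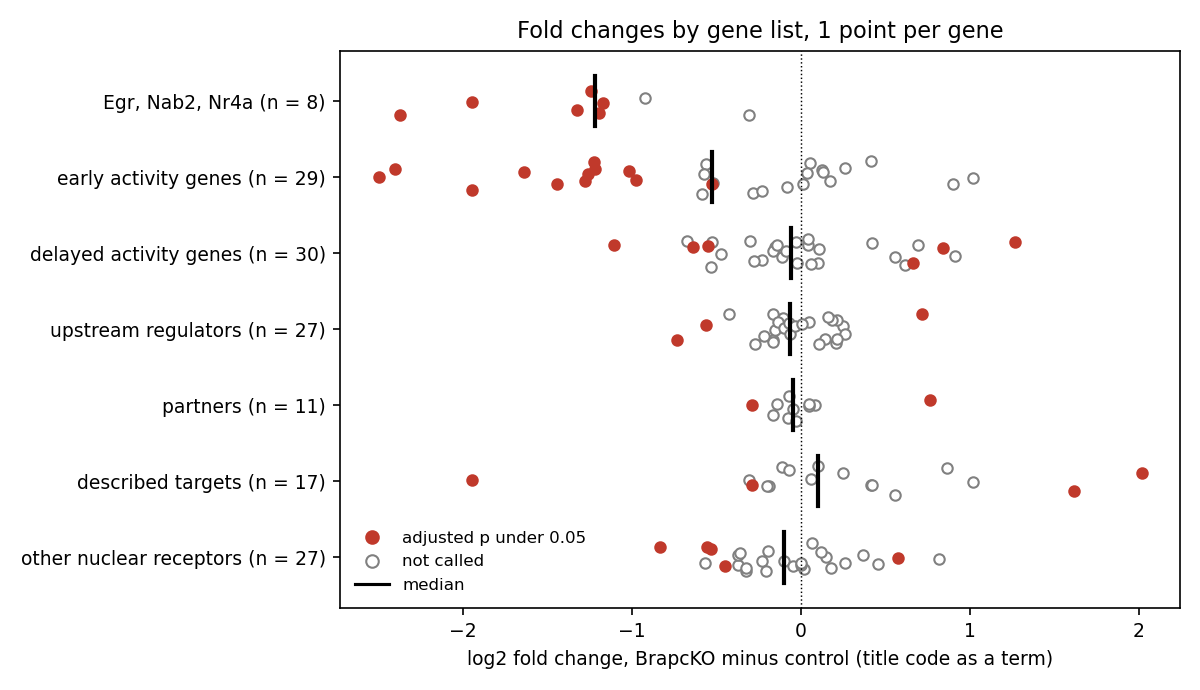
Each point is 1 gene, placed on the x axis by its edgeR log2 fold change, BrapcKO minus control, in the fit that holds the title code, and rows are gene lists with their size. Red points have an adjusted p under 0.05 and black lines are medians. The Egr, Nab2 and Nr4a row has the lowest median, the early genes follow at -0.52, and the other rows have medians between -0.10 and 0.10.

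The 10 genes whose profile over the 10 libraries was nearest to the mean profile of the 8 genes were Lamp5, Fosb, Pth2r, Ephb3, Fosl2, Zfp184, Zfp296, Cadps2, Crhr1 and Dusp1, in that order. Nearness was the root mean square difference in centred log2 CPM among 13428 named genes with an average of at least 1 CPM. It was 0.23 for Lamp5, which encodes a LAMP-family membrane protein and marks upper-layer neurons and a class of interneurons, and 0.33 for Dusp1. Of the 8 genes themselves, which make up the mean, 7 were farther from it than Lamp5, up to 0.67 for Egr4. Lamp5 averaged 40.6 ± 9.74 CPM in the libraries labelled BrapcKO and 104 ± 18.7 CPM in control (SD, n = 5 each).

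Markers of other cells and of neighbouring tissue moved beside these results, in a fit where 3.12% of all genes rose and 4.95% fell. Of 15 striatal markers 12 rose and 0 fell (2 rose without the title code), and their summed level was 1462 to 2478 CPM in the libraries labelled BrapcKO and 882 to 1735 CPM in control. Of 14 markers of microglia and macrophages, cells that also express Egr and Nr4a genes, 3 rose (C1qa, C1qb and C1qc) and 0 fell, with summed levels of 402 to 1164 CPM in the libraries labelled BrapcKO and 261 to 330 CPM in control. Of 12 interneuron markers 5 rose, and 3 did without the title code. Of 10 astrocyte markers 1 rose (Gfap), and 0 of 10 oligodendrocyte, 12 endothelial and mural and 6 choroid plexus markers were called by edgeR. Of 9 general neuronal markers 2 fell (Nefl and Syt1), with summed levels of 8419 to 9431 CPM in the libraries labelled BrapcKO and 9075 to 10010 CPM in control. Of 12 upper-layer markers 4 fell and 2 rose (2 and 1 without the title code), and of 12 deep-layer markers 2 fell and 2 rose (2 and 1 without it). Each of these markers averaged at least 1 CPM, and their part in the results above was not tested.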

How the data were processed

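Ribosomal RNA-depleted libraries of total RNA from frozen cortex were made, per the labels' protocols, and the submitters' processing notes name FastQC, Subread, featureCounts, DESeq2 and edgeR and the builds mm10 and GRCm38, without versions or settings. The table the authors deposited gives raw gene-level read counts for each library. Every gene in the table reached 0.582 CPM in at least 5 libraries, so low genes are absent. Of 14276 identifiers, 14271 matched GENCODE M21, which gave symbols, coordinates and merged exon lengths.

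Counts were fitted with edgeR 4.0.16 in R 4.3.3 (TMM, robust quasi-likelihood, group and title code as terms; the default filter removed 0 genes). The fit was also run on simulated counts that held a group effect but no title code or sex effect. That run therefore could not check the fit under such effects. The title code was made a term of the fit because the rule that chose the genes names it. The SE was taken as the size of the fold change (log2) over the root of the F statistic. Pairs of genes were compared on log2 CPM with a prior count of 2. Alternatives were other terms, scalings, filters, DESeq2 1.42.0, limma-voom (limma 3.58.1), genotype contrasts, B1 libraries alone and leaving out each library. Replicates were distinct libraries: chi-square per degree of freedom between them ran from 7.16 to 96.4. At 17188901 to 28991874 counts per library, intervals cover counting error and spread between libraries.

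The genes and lists were chosen with earlier results of these data known. Named genes were the 8 genes, up to 6 called members of each list by smallest p (2 if none was called), genes overlapping the 8, Brap and the 10 nearest profiles; Ier2, Fosl2 and the others completing the early list, Slc17a7 and the Y-linked genes are named outside this rule, some marker genes are given as counts only, and 1 predicted gene among the nearest was passed over. Of the genes this rule names, 1 is not reported here.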

Additional observations from a re-analysis of the deposited data

Results flagged for a closer look

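In groups of 5 libraries, the gap of the highest or lowest library to its nearest neighbour was set against the range of the group for 76 named genes, and it exceeded 0.71 in 12 of 152 groups; chance gives about 1 in 20. Nab2 stood at 34.8 CPM in BrapcKO 21, against at most 18.3 CPM in the other libraries labelled BrapcKO. In the same library Rarb stood at 39.2 CPM (next highest 9.96 CPM), Slc32a1, the vesicular GABA transporter, at 102 CPM (next 60.8 CPM) and Nefl at 370 CPM (next 294 CPM). BrapcKO 21 is the only B2 library of its group. C1qa, C1qb and C1qc stood at 173, 111 and 122 CPM in BrapcKO 05, with the next libraries at 71.6, 50.2 and 48.1 CPM. Fosl2 was lowest in BrapcKO 06 at 21.6 CPM (next 33.5 CPM), and Kcnj8 highest in BrapcKO 04 at 4.87 CPM (next 3.14 CPM). In control, Nr3c1 was lowest in control 24 at 164 CPM (next 220 CPM), Wfs1 highest in control 24 at 167 CPM (next 110 CPM) and Rasgrf2 highest in control 09 at 287 CPM (next 240 CPM).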

How the results depend on the processing

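All 176 fold changes of the 8 genes under the alternatives were negative, and 125 were called. The alternatives reuse the same libraries and are not independent of each other. The fit without the low-count filter repeats the main fit, since that filter removed 0 genes. Counts that moved by over 1.5 times follow. Genes called in the whole table numbered 1152, against 617 with group only, 320 with title code and Y-linked score, 415 in B1 libraries, 105 in the flox/flox and 691 in the flox/ko contrast. The 8 genes gave 6 calls, against 0 in the flox/flox contrast. Early genes gave 12, against 5 with the Y-linked score, 7 in B1 libraries and 2 in flox/flox. Delayed genes gave 6, against 3 with group only, 2 with the Y-linked score and 0 in flox/flox. Regulators gave 3, against 1 with the Y-linked score, 1 in B1 libraries and 0 in flox/flox. Partners gave 2, against 0 with group only, 0 with the Y-linked score, 1 with library totals, 1 in B1 libraries and 0 in either genotype contrast. Described targets gave 4, against 8 by DESeq2 and 0 in flox/flox. Other nuclear receptors gave 5, against 0 with group only, 3 with the Y-linked score and 0 in flox/flox. Pairs gave 7, against 11 within title codes. Leaving out 1 library gave 406 to 1454 genes, 3 to 7 of the 8, 5 to 12 early genes, 4 to 9 delayed genes, 1 to 6 regulators, 1 to 2 partners, 3 to 6 targets and 0 to 7 receptors. The cause of these moves was not tested, and the genotype contrasts and the B1 fit also set fewer libraries against each other. No paired analysis was possible because the groups share no replicate number. Depth limits Egr2 most, with 60 reads in its lowest library.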
